A study of Drosophila melanogaster with 3 samples.

Results

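The weaker peaks are 1814 regions assigned to the homeodomain protein Dbx, tagged with eGFP. They were in the longest peak list of the series and overlapped no peak of its conservative list. They were chosen by the authors' own statistics: the longest of the 4 series-level thresholded lists was taken, and every peak on the 6 main chromosome sequences that overlapped a conservative peak by 1 bp or more was removed. Of 6386 longest-list peaks on those sequences, 4572 overlapped a conservative peak and 1814 did not, and the conservative list itself held 4943 peaks. The series is a chromatin immunoprecipitation sequencing (ChIP-seq) experiment on whole Drosophila melanogaster embryos collected 8 to 24 h after laying, with 3 biological replicates of 1 group. The embryos came from a transgenic strain that expresses a Dbx-eGFP fusion protein, and chromatin sonicated to 200 to 800 bp was precipitated with an antibody against GFP. No second genotype, stage or treatment was part of the series, so the comparisons below are between sets of peaks and between replicates. The replicates carry the same label and are separate libraries. Whole embryos hold all tissues, so a peak cannot be assigned to a cell type, and the labels do not say whether untagged Dbx was also present.

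Dbx is the fly member of a homeobox family conserved in animals. In the embryonic nerve cord of the fly it is known from a subset of interneurons and their precursors, where it acts in the choice between neuronal fates, and its vertebrate relatives mark progenitors of spinal interneurons. Homeodomains bind short AT-rich DNA, with TAATTA as a frequent core. The irreproducible discovery rate (IDR) used to make the lists compares how peaks rank in paired sets of reads, so that a peak passes when it ranks high in both. A conservative list is commonly the stricter result of such a procedure, and a peak found outside it is one whose rank held up in one pairing and not in another.

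The sequences below reach 50 bases to either side of the summit, the position of highest signal within a peak, and show what kinds of DNA the set holds. For promoters, introns and intergenic DNA the choice was among windows free of annotated untranslated bases. It left out 1 chromosome arm, which is named with the processing. That arm held promoter peaks at Trpm (signal 172) and mlt (171), above the printed promoter peaks in signal. Within these limits the printed windows are the peaks of highest signal, and 1 peak per class that overlapped all 3 replicate lists. The last 3 have their summits in protein-coding exons, the class with the largest ratio of weaker to conservative share (7.07), and were picked after their values were seen. All are the plus strand of dm6, read 5′ to 3′, with capitals marking a match, on either strand, to any of the 12 short words whose counts are given further on.
EndoGI promoter, chr2L:16257844-16257944: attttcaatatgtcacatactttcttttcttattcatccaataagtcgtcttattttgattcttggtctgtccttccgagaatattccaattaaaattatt
RpL37-1 promoter, chrX:15139399-15139499: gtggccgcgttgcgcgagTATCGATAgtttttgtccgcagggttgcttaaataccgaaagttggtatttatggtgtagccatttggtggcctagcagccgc
Pits promoter, chrX:12583321-12583421: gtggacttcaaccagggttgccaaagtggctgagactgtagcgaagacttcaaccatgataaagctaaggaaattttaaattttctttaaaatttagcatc
fru intron, chr3R:18508404-18508504: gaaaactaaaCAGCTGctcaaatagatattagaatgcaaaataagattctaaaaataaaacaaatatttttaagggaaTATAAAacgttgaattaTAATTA
CG42390 intron, chr3R:22121359-22121459: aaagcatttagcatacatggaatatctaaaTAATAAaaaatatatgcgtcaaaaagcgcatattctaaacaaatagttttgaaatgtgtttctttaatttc
haf intron (nearest start nis), chr2L:1590374-1590474: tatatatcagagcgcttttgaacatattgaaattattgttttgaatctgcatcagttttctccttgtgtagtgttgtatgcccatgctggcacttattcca
intergenic, nearest start CG15452, chrX:20760494-20760594: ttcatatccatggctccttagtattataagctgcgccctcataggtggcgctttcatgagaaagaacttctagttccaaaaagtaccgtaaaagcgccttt
intergenic, nearest start CG7320, chr3L:18212318-18212418: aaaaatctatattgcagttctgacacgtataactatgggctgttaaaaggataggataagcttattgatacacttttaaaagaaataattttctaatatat
intergenic, nearest start Reg-2, chr3L:627117-627217: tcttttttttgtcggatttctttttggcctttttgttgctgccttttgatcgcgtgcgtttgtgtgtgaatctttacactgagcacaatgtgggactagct
CG10962 coding exon, chrX:8973264-8973364: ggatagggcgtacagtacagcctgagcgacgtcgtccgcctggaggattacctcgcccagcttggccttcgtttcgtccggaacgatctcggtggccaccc
Rbfox1 coding exon, chr3L:10581937-10582037: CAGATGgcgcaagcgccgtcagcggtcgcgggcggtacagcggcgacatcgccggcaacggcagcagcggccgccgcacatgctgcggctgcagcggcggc
Dbx coding exon and preceding intron, chr3L:1925389-1925489: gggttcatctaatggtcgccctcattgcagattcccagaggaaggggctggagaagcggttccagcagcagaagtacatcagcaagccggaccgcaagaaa

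The printed promoter, intron and intergenic windows were mostly AT-rich, and the coding-exon windows were not. In windows reaching 100 bp to either side of all weaker summits, the median G+C content was 43.3%, 40.3% and 39.8% in the first 3 classes. Evenly spaced genome windows of these classes had 42.3%, 40.3% and 40.8%. The fru window was 20.8% G+C and held an E-box word, a TATA word and the homeodomain core. The CG42390 window was 23.8% G+C with a single homeodomain-like word. The RpL37-1 window held the palindrome bound by the promoter factor DREF, and its summit lay 82 bp before the start of this ribosomal protein gene. The windows at EndoGI, Pits, haf and all 3 intergenic peaks held none of the 12 words. The Rbfox1 window, inside a coding exon of this splicing regulator, was 76.2% G+C, and the Dbx window was 55.4% G+C. The Dbx window begins with 30 bases of intron, followed by 71 coding bases, while the CG10962 and Rbfox1 windows are coding throughout.

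The rule used membership in 2 IDR lists and overlap between them, and the signal comes from the same reads. The signal is the authors' enrichment value per peak on a scale that no source used here states. Its lowest value was 2.07, its quartiles were 74.99, 83.9 and 95.5, and its highest value was 269, against a median of 137 for the conservative peaks. By signal, 94.3% of the weaker peaks ranked below the middle of the longest list, and the best of them ranked 835 of 6386. In width they were nearly uniform, with 1812 of 1814 at 400 bp. The closest ones inside the rule lay 12 bp from a conservative peak at SC35, which encodes a splicing factor, with a signal of 134, and 33 bp from one at Cpsf100, with a signal of 81.4. Just outside it, a peak at prage that overlapped a conservative peak by 11 bp, with a signal of 175, was removed. The median distance to the nearest conservative peak was 4252 bp. There were 193 weaker peaks within 500 bp of one and 512 more than 10000 bp away. Overlaps within the set were paired, since 218 weaker peaks overlapped another and the 1814 merged into 1705 separate regions. Of the 100 weaker peaks with a signal under 40, 96 overlapped a weaker peak of higher signal.

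The series-level lists were cut from 4 ranked lists, and a weaker peak could have an IDR value in up to 4 of them. On the −log10 scale, where 2 is the authors' threshold of 0.01, the weaker peaks had a median of 2.33 and a maximum of 4.94 in the ranked list behind the longest list. In the ranked list behind the conservative list, 1753 of them were found with a median of 1.38 and a maximum just under 2, and 61 were not listed. Of the weaker peaks, 496 lay within the range of 1.7 to 2 there, just short of the threshold, and 605 lay under 1. The other 2 thresholded lists, of 3896 and 3453 peaks, overlapped 348 and 188 weaker peaks (19.2% and 10.4%), and 3 weaker peaks were in both. In the ranked lists behind them, 18.5% and 10.1% of weaker peaks had an IDR of at most 0.01. The same held for 66.1% and 63.1% of conservative peaks. In the ranked list behind the longest list, 4390 of 4943 conservative peaks (88.8%) had an IDR of at most 0.01. There, 318 conservative peaks had a −log10 value under 1 and 10 were not listed, so the conservative list was not contained in the longest one. All these values come from the reads the rule used and are given as a description.

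Summits of weaker peaks were found at promoters less often and inside coding exons more often than conservative summits. Promoter here means 250 bp on either side of the first transcribed base (transcription start site, TSS) of any protein-coding transcript. Of the weaker summits, 619 of 1814 (34.1%) lay in promoters, against 2543 of 4943 conservative summits (51.4%). The difference, weaker minus conservative, was -17.3 percentage points with a 95% interval from -19.9 to -14.7 (two-sided Fisher's exact test, adjusted p = 1.16e-36). Coding exons held 223 weaker summits (12.3%) and 86 conservative ones (1.74%), a difference of 10.6 points with an interval from 9.07 to 12.2 (Fisher's exact test, adjusted p = 2.90e-64). With the weaker peaks limited to an IDR of at most 0.005, the coding-exon difference was 4.81 points (Fisher's exact test, adjusted p = 8.83e-14). With both sets limited to peaks in at least 1 replicate list, it was 1.97 points. Of the bases of the 6 chromosome sequences, 6.26% are promoter and 15.7% coding exon, so the weaker share was 5.45 times the base share at promoters and 0.785 times in coding exons. The conservative shares were 8.22 and 0.111 times the base share.

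The other classes differed less. Introns held 33.7% of weaker and 30.5% of conservative summits, a difference of 3.15 points (Fisher's exact test, adjusted p = 0.0259). Intergenic DNA held 16.2% and 13.9%, a difference of 2.23 points with the same adjusted p of 0.0259 by Fisher's exact test. 3′ untranslated regions held 1.82% and 1.07% (Fisher's exact test, adjusted p = 0.0259), and 5′ untranslated regions held 1.93% and 1.29%, which did not pass (Fisher's exact test, adjusted p = 0.0667). The intergenic difference turned to -2.30 points with a promoter window of 100 bp, and the intron difference shrank to 0.67 points there. All peaks come from the same libraries, so these p-values cover counting error over peaks and not variation between embryo collections.

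**Figure D1:**
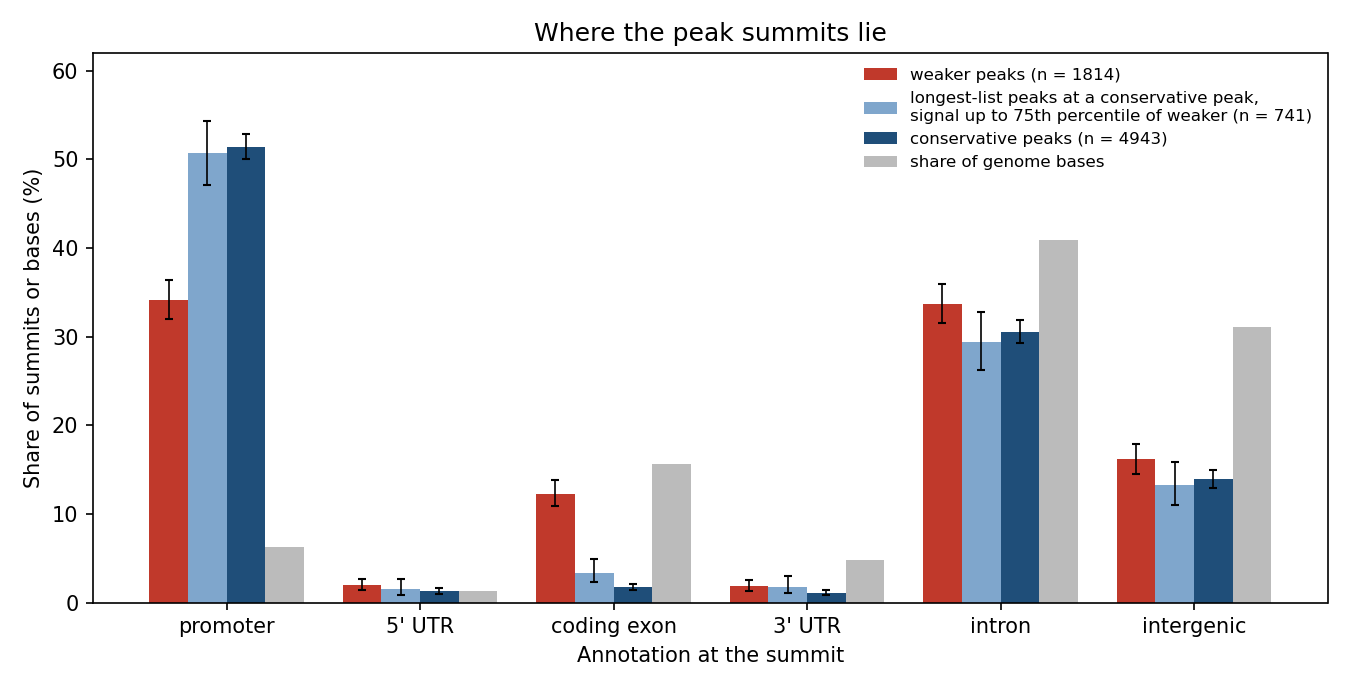
Share of summits in each annotation class for the weaker peaks, for longest-list peaks that overlap a conservative peak and have a signal of at most 95.5, and for the conservative peaks, with the share of genome bases in grey. Error bars are 95% Wilson intervals over peaks; the weaker bars stand at 34.1% for promoters and 12.3% for coding exons, against 51.4% and 1.74% for the conservative bars.

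Under a limit on signal of at most 95.5, the promoter and coding-exon differences remained. Among 741 longest-list peaks that overlapped a conservative peak and had a signal of at most 95.5, the 75th percentile of the weaker peaks, 25 summits (3.37%) lay in coding exons and 376 (50.7%) in promoters. Against these, the coding-exon difference was 8.92 points (Fisher's exact test, adjusted p = 1.99e-13) and the promoter difference -16.6 points (Fisher's exact test, adjusted p = 5.14e-14). The intron and intergenic differences, 4.26 and 2.93 points, no longer passed. The limit bounds only the comparison set and only from above. With both sets held to a signal from 40 to 95.5, a choice made after seeing the data, coding exons held 199 of 1260 weaker summits (15.8%) and 21 of 542 others (3.87%), a difference of 11.9 points (Fisher's exact test, adjusted p = 8.84e-14). The promoter difference was then -18.5 points (Fisher's exact test, adjusted p = 7.81e-13). Within the weaker set the coding-exon share changed with signal: it was 16.8%, 19.3%, 13.5%, 9.64% and 2.21% in 5 equal parts of the set taken from lowest to highest signal. The promoter share went from 29.8% in the lowest part to 41.7% in the highest, whose signal ran from 98.9 to 269. Longest-list peaks that overlap a conservative peak were split in the same way. Their lowest part, with a signal up to 100.4, had 3.28% in coding exons and 50.7% in promoters. The next part, up to 126.9, had 1.31% and 47.3%. In the highest weaker part the coding-exon share was thus close to that of the other set, while the promoter share was lower.

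**Figure D2:**
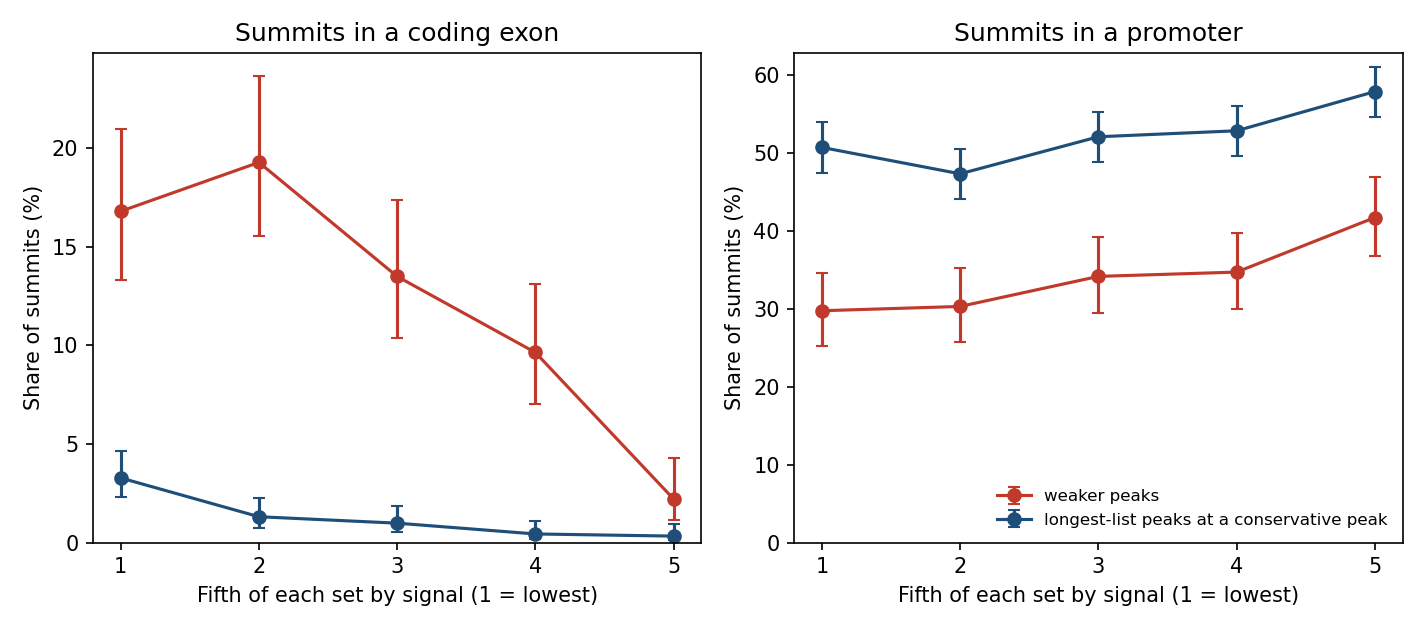
Share of summits in coding exons (left) and in promoters (right) by signal, in 5 equal parts from lowest to highest, within the weaker peaks and within the longest-list peaks that overlap a conservative peak, with 95% Wilson intervals over peaks. The coding-exon share of the weaker peaks is 19.3% in part 2 and 2.21% in the highest, while the other set stays at 3.28% or less.

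The 223 coding-exon peaks lay in 207 genes or groups of overlapping genes, 14 of which held more than 1. Their signal ran from 3.16 to 106 with a median of 77.2, against 85.0 for the other 1591 weaker peaks. The 3 of highest signal, named after their values were seen, lay in sut3, which encodes a sugar transporter, in up, which encodes troponin T of muscle, and in Sec31, which encodes a coat subunit of secretory vesicles. The sut3 peak had a series-level signal of 106 and overlapped ranked replicate peaks with signals of 46.6, 19.95 and 30.9 in replicates 1, 2 and 3. The up peak had 105, with replicate signals of 49.0, 21.7 and 19.9. The Sec31 peak had 104, with 21.7, 48.8 and 33.8. At each of these peaks 1 replicate stood above the others, replicate 1 at sut3 and up and replicate 2 at Sec31. None of the 3 replicates had the peak in its thresholded list. Not every coding-exon peak had such a spread, since the one at Sarm had 30.5, 30.8 and 34.5. The windows reaching 100 bp to either side of coding-exon summits had a median G+C content of 58.7% in the weaker set and 58.5% in the conservative set, above the 52.2% of evenly spaced genome windows whose centre lies in a coding exon. Whether base composition has a part in the difference between the sets was not tested.

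The same comparison was made inside each replicate's own thresholded list, between replicate peaks that overlap a weaker peak and those that overlap a conservative one. The promoter share of the first kind was 47.2% of 284 peaks in replicate 1, 44.4% of 239 in replicate 2 and 38.8% of 206 in replicate 3. The promoter share of the second kind was 55.0% of 3207, 55.5% of 3000 and 51.6% of 2252. The promoter share was lower at weaker peaks in every replicate, by a mean of -10.6 ± 2.53 points (SD, n = 3; exact sign-flip test, two-sided p = 0.25, the smallest that 3 replicates allow). The coding-exon share of replicate peaks at weaker peaks was 1.41%, 3.77% and 1.94%, against 0.53%, 0.833% and 0.444% at conservative peaks, a mean difference of 1.77 ± 1.05 points (SD, n = 3; exact sign-flip test, p = 0.25). Intron shares also differed in 1 direction in all 3 replicates, by 5.23 ± 2.57 points, and intergenic shares did not, at -1.70, 3.69 and 0.969 points.

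Of the 1814 weaker peaks, 623 (34.3%, 95% Wilson interval 32.2 to 36.6%) overlapped a peak in at least 1 replicate's thresholded list, while 69.9% of all 6386 longest-list peaks did. The rule and the replicate lists draw on the same reads, so the counts are a description. The weaker peaks were found at 15.3% in replicate 1, 12.95% in replicate 2 and 11.8% in replicate 3 (mean 13.3 ± 1.77%, SD, n = 3). The conservative peaks were found at 65.0%, 61.7% and 46.3% (mean 57.7 ± 10.01%). The highest weaker share, in replicate 1, was below the lowest conservative share, in replicate 3. Of the weaker peaks, 1191 were in no replicate list, 532 in 1, 79 in 2 and 12 in all 3. Of the conservative peaks, 1012 were in none and 1789 in all 3. Peaks that were in a single list were spread over the replicates, with 233 in replicate 1 alone, 162 in replicate 2 alone and 137 in replicate 3 alone.

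Location and replicate presence went together within the weaker set. Promoter peaks were in at least 1 replicate list in 43.8% of cases, intron peaks in 36.2%, intergenic peaks in 31.1% and coding-exon peaks in 8.07%, or 18 of 223. Presence also changed with signal, at 22.6%, 15.2%, 22.6%, 38.6% and 72.9% in 5 equal parts of the set from lowest to highest signal. Whether signal has a part in the contrast between classes was not tested. Coding-exon peaks were in the lists of replicates 1, 2 and 3 at 2.24%, 3.59% and 2.24% (mean 2.69 ± 0.777%, SD, n = 3), and none was in all 3. Conservative coding-exon peaks were found at 27.9%, 30.2% and 10.5%. When both sets were limited to peaks in at least 1 replicate list, the coding-exon shares were 2.89% and 0.916%, a difference of 1.97 points (Fisher's exact test, adjusted p = 0.000523). The promoter shares were then 43.5% and 53.2%, a difference of -9.74 points (Fisher's exact test, adjusted p = 4.15e-05).

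**Figure D3:**
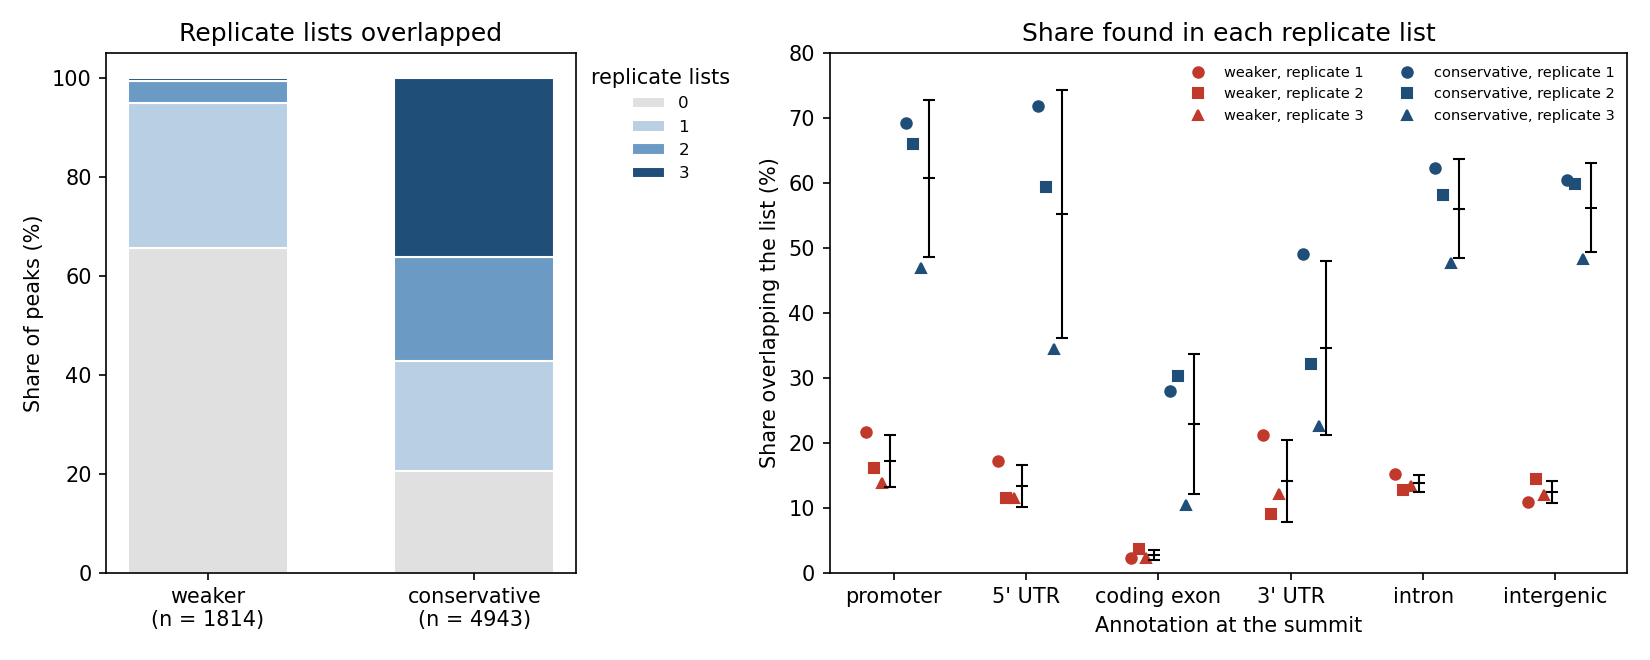
Left, share of weaker and conservative peaks that overlap 0, 1, 2 or 3 of the replicate thresholded lists. Right, share found in each replicate's list by annotation class, with the mean and SD over 3 replicates beside the points; 65.7% of weaker peaks are in no list, and coding-exon peaks of the weaker set lie lowest at 2.24 to 3.59%.

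Without a threshold, every weaker peak overlapped a peak in at least 1 replicate's ranked list, and 1631 did so in all 3. Ranked lists hold 78296, 98760 and 85601 peaks on the main chromosome sequences, so an overlap alone carries little information. The median ranks of the weaker peaks by signal were 8137, 7949 and 5780 in replicates 1, 2 and 3, and those of the conservative peaks were 2526, 2495 and 2457. Over the 1631 weaker and 4604 conservative peaks ranked in all 3 replicates, the worst of the 3 ranks was a median of 4.01 times the best for weaker and 2.15 times for conservative peaks. The ratio was 10 or more for 175 of the 1631 (10.7%) and 237 of the 4604 (5.15%). The rule rests on IDR, which compares ranks from the same reads, so these values are a description.

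A group of weaker peaks overlapped a ranked peak in replicates 2 and 3 and none in replicate 1. This held for 71 weaker peaks (3.91%), against 15 of 4943 conservative peaks (0.303%). Of the 71, 20 were in the thresholded list of replicate 2 and 18 in that of replicate 3. Their series-level signal had a median of 89.1 and reached 269, the highest of the whole set. By location, 33 were intergenic, 25 in introns, 8 in promoters and 5 in coding exons, so that the intergenic share was 46.5% against 16.2% in the full set. The 15 conservative peaks had a like share, with 7 intergenic (46.7%) against 13.9% of all conservative peaks. Among the 71 weaker peaks, 49 lacked an entry in the conservative ranked list, and 35 were in the shorter list of 3896 peaks. The matching count for replicate 2 was 12 weaker peaks and for replicate 3 it was 90, beside 4 and 313 conservative peaks. Of those 12 and 90 weaker peaks, 4 and 0 lacked an entry in the conservative ranked list. Both the rule and the ranked lists draw on the same reads, so these counts are a description. With both sets limited to peaks that had a ranked peak in all 3 replicates, the intergenic difference was 0.91 points and did not pass (Fisher's exact test, adjusted p = 0.365), while the promoter and coding-exon differences were -16.4 and 10.9 points. What sets replicate 1 apart at these places was not tested.

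Weaker peaks in the shorter series-level lists differed in the replicate lists they overlapped. The 348 weaker peaks in the list of 3896 were in the thresholded list of replicate 1 at 5.17%, of replicate 2 at 38.5% and of replicate 3 at 29.0%. The 188 in the list of 3453 were found at 44.1%, 5.85% and 36.2%. Members of the first list were thus least often in replicate 1, and members of the second least often in replicate 2. The labels do not say which libraries enter which list. All these lists draw on the same reads as the rule, so the shares are a description.

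The 20 weaker peaks of highest signal, between 155.2 and 269, comprised 9 in promoters, 6 in introns, 5 in intergenic DNA and none in a coding exon. Of these, 7 were in all 3 replicate lists, 10 in 2 and 3 in 1, and 11 had as nearest gene one with no conservative summit. The highest of all, at chr3R:18508254-18508653, lay in an intron of fru, which encodes zinc-finger transcription factors of male courtship neurons. It had no ranked peak in replicate 1 and signals of 69.9 in replicate 2 and 95.7 in replicate 3, where it ranked 672. The next, at chr3R:22121209-22121608 in an intron of CG42390, had no peak in replicate 1 and signals of 84.3 and 84.5 in the others. An intronic peak of ths, which encodes a fibroblast growth factor that guides mesoderm, had no peak in replicate 1, then 69.2 and 61.3. The intergenic peaks nearest to CG15452, CG7320 and Ldh, the gene of lactate dehydrogenase, also had none in replicate 1. These 6 peaks had high values in replicate 2 in every case, from 68.0 to 84.3, and were absent from the conservative ranked list.

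Other peaks near the top were present throughout. The promoter peak of CG12316, at chr3L:15136681-15137080, had signals of 69.9, 79.995 and 77.4 in replicates 1, 2 and 3. Its spread was narrow, yet its −log10 IDR was 0.69 in the conservative ranked list and 2.02 in the one behind the longest list. The promoter peak of Serinc, a gene of the serine incorporator family, had 72.7, 73.5 and 54.7, all in the thresholded lists, with a −log10 IDR of 0.18 in the conservative ranked list. CHES-1-like, a forkhead factor gene, had 69.6, 42.0 and 73.7 at its promoter and had 11 conservative summits of its own. The peak at the promoter of defl, which encodes a subunit of the Integrator complex, had 46.6, 69.5 and 47.7. The peak in an intron of Dyro had 58.8, 69.6 and 60.5, and the one in an intron of haf, nearest to the start of nis, had 73.0, 54.3 and 61.9. The remaining peak of the 7 in all 3 lists, at the promoter of mlt, had 54.1, 75.5 and 49.1. None of these 7 peaks lacked a value in any replicate.

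**Figure D4:**
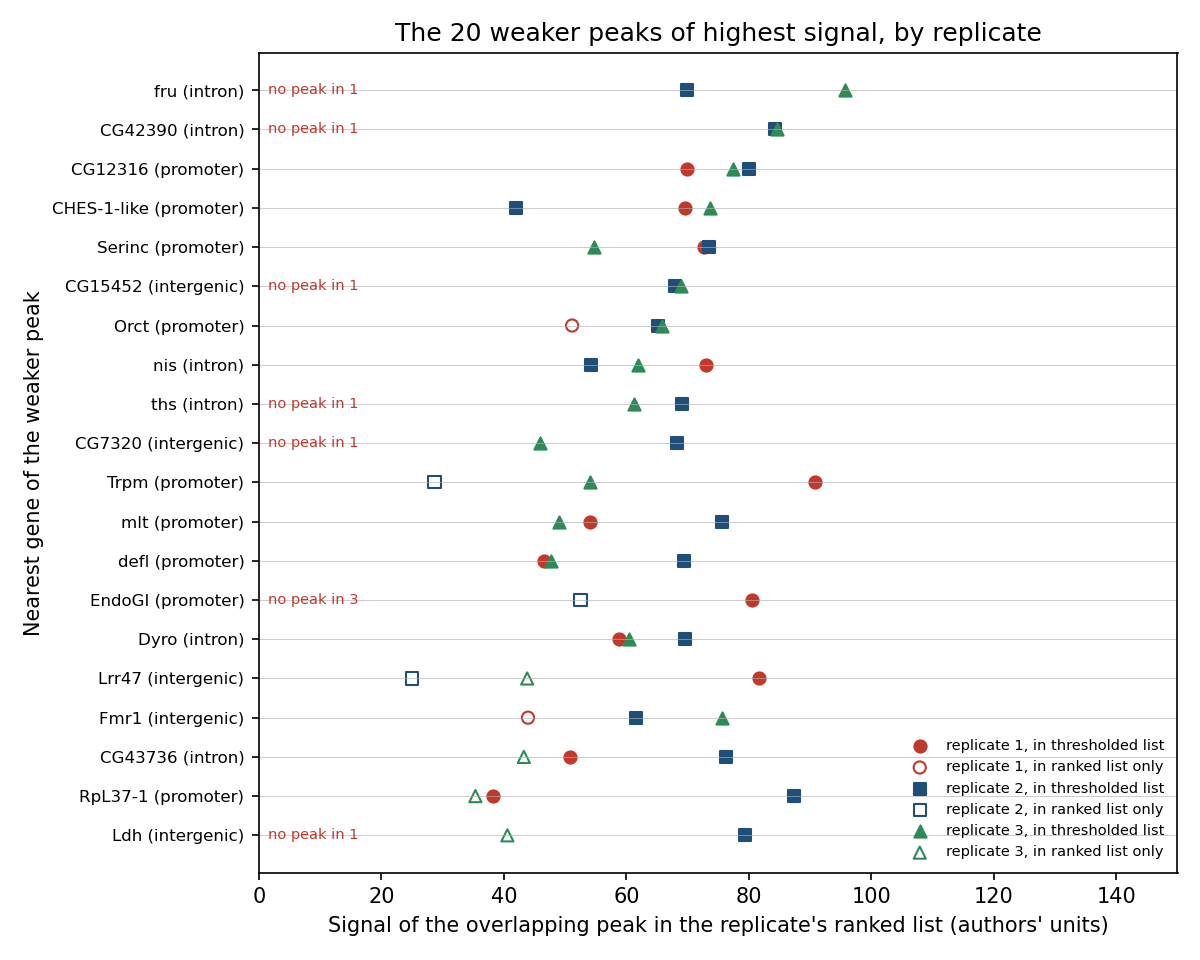
Signal of the overlapping ranked peak in each replicate (horizontal axis, the authors' units) for the 20 weaker peaks of highest series-level signal, ordered from highest (top) to lowest. Filled symbols are in the replicate's thresholded list and open ones in its ranked list alone; fru, CG42390, CG15452, ths, CG7320 and Ldh have no peak in replicate 1, and EndoGI has none in replicate 3.

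Among the 12 weaker peaks found in all 3 replicate lists, 5 lay below the 20 of highest signal. The peak nearest to the start of amn, a memory-related neuropeptide gene, lay in a 5′ untranslated region within the annotated span of amn and Hers and had replicate signals of 65.8, 28.8 and 50.9. The peak nearest to the start of Rsod, in a 3′ untranslated region of Mlc2, which encodes a myosin light chain, had 55.0, 47.6 and 25.9. The Nadk1a peak, in an intron near this NAD kinase gene, had 48.7, 57.4 and 36.5. The intergenic peak nearest to Reg-2 had 31.2, 62.3 and 44.3, and the Pits promoter peak had 74.8, 45.1 and 52.6. The order of the replicates was not the same from peak to peak.

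Assigned to the nearest TSS, the weaker summits had 1431 of 13945 protein-coding genes as nearest gene (10.3%), and the conservative summits 3260 (23.4%). Of the 1431, 610 (42.6%) also had a conservative summit and 821 did not, which is 18.7% of the 3260 genes of the conservative list and 7.68% of the 10685 genes without a conservative summit. The median distance from summit to TSS was 771 bp for weaker and 225 bp for conservative peaks. Most genes had 1 weaker summit (1155 genes), and 72 had 3 or more. The most, 6 each, were at fru, all in introns, and at Eip75B, which encodes an ecdysone-induced nuclear receptor and had 18 conservative summits as well. There were 5 each at Dyro, NFAT, Pcyt1, PIP82, Mob2 and Dbx. NFAT encodes a calcium-regulated transcription factor, Pcyt1 an enzyme of phosphatidylcholine synthesis and Mob2 a partner of kinases that shape cells. Pcyt1, PIP82 and Dbx had no conservative summit.

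Gene lists put the nearest genes in context, beside the 10.3% of all genes with a weaker summit and the 23.4% with a conservative one. No test was run on them, since they were picked with results known. In the list of axon guidance and adhesion genes 9 of 37 (24.3%) had a weaker summit, and 6 of these had no conservative one. The weaker peak at the promoter of fra, the Netrin receptor, had replicate signals of 56.2, 43.8 and 30.2, and the one at the promoter of Con, a cell adhesion protein of muscles and motor neurons, had 33.8, 26.1 and 44.0. In the synapse and excitability list 7 of 30 (23.3%) had one, among them the promoters of Nlg2, a neuroligin, with 31.4, 28.4 and 37.9, and of the synaptic vesicle gene Syt1, with 57.7, 28.7 and 18.7. In the list of neuroblast regulators 6 of 30 had one. The peak near wor, a Snail-family gene of neural stem cells, had no peak in replicate 1, then 37.7 and 42.5. The promoter peak of SoxN, an early neural factor, had none in replicate 1, then 39.6 and 19.3. In the list of nerve cord homeodomain and neuronal identity factors 5 of 34 (14.7%) had one, including Dbx itself, OdsH, dac and vvl. A conservative summit was found at 51.4% of the axon guidance and adhesion genes and 29.4% of the nerve cord factors. The synapse and neuroblast lists had 20% each.

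Lists of other tissues were represented as well. In the mesoderm and muscle list 9 of 33 (27.3%) had a weaker summit, and of the 4 named by the rule, the peaks at up and Tm2, the genes of troponin T and a tropomyosin, lay in coding exons. In the epidermis and trachea list 5 of 18 (27.8%) had one, including the E-cadherin gene shg at its promoter, with replicate signals of 28.0, 33.5 and 25.6, and the midline gene sim, with no peak in replicate 1, then 38.4 and 21.7. In the segment patterning and signalling list 9 of 38 (23.7%) had one, among them Mad, a transducer of Dpp signals, with 30.4, 31.3 and 32.5, and hh, the Hedgehog ligand gene, with 29.1, 33.1 and 24.4. In the list of chromatin regulators 7 of 32 (21.9%) had one, including the promoters of Snr1, a remodelling subunit, and of the insulator factor gene CTCF. In the gut, fat body and blood list 4 of 19 (21.1%) had one, including GATAe and lz. In the glial and blood-brain barrier list 2 of 14 did, loco and pnt, and among the Hox genes 2 of 11, abd-A and Dfd. Conservative summits were found at 48.5%, 44.4%, 57.9%, 46.9%, 26.3%, 50% and 36.4% of these lists, in the order given. All are above the 23.4% of all genes, so a raised share in these lists was not particular to weaker summits.

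Of 92 cytoplasmic ribosomal protein genes, 64 (69.6%) had a conservative summit and 5 (5.43%) a weaker one. Among the 28 without a conservative summit, 4 (14.3%) had a weaker one, beside 7.68% over all genes without a conservative summit. The RpL37-1 promoter peak had replicate signals of 38.1, 87.4 and 35.3, and the RpS6 promoter peak had 27.1, 36.5 and 46.6. Of 73 mitochondrial ribosomal protein genes, 11 (15.1%) had a conservative and 4 (5.48%) a weaker summit. Of those 4 weaker summits, the one nearest to mRpL46 lay in a coding exon of alpha-Spec and the one nearest to mRpL13 in a coding exon of tup, so that nearness to a TSS does not place a peak in that gene. Of 119 odorant and gustatory receptor genes, 3 (2.52%) had a conservative and 4 (3.36%) a weaker summit, Or33a, Or33c, Gr59d and Gr21a.

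The Dbx gene, whose product was precipitated, had weaker peaks and no conservative peak. It lies at chr3L:1921307-1933602 on the plus strand of dm6. Its body held 6 weaker summits, and the stretch reaching 5000 bp to either side held 8, with 0 conservative summits in the same stretch. This came to 4.88 weaker summits per 10 kb of the gene body against 0.135 over the genome, and 4 other genes held as many in their bodies. Among the 60 genes with 3 or more weaker summits in their bodies, Dbx ranked 5 by number per length. Of the 8 summits, 5 lay in coding exons, 1 of them past the end of Dbx, 2 lay in introns and 1 was intergenic, 959 bp before the start of Dbx.

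The replicates differed at the Dbx peaks. The upstream peak had no ranked peak in replicate 1, a signal of 44.5 in replicate 2 and 32.3 in replicate 3. The coding-exon peak whose sequence is printed above, 4132 bp after the start, had 23.3, 36.0 and 37.6, and was in the thresholded list of replicate 3 alone. The intron peak 6779 bp after the start had none in replicate 1, then 40.2 and 30.8, and was in the list of replicate 2 alone. The other 5 were in no replicate list. Across the 8 peaks, 5 had no ranked peak in replicate 1, and every one had a peak in replicates 2 and 3. In the ranked list behind the list of 3896 peaks their −log10 IDR ran from 1.29 to 2.49, and in the conservative ranked list no value exceeded 0.92. One of the 8 had a signal of 3.22 and overlapped its neighbour of 63.3, so that the 2 may be counted as 1 region.

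**Figure D5:**
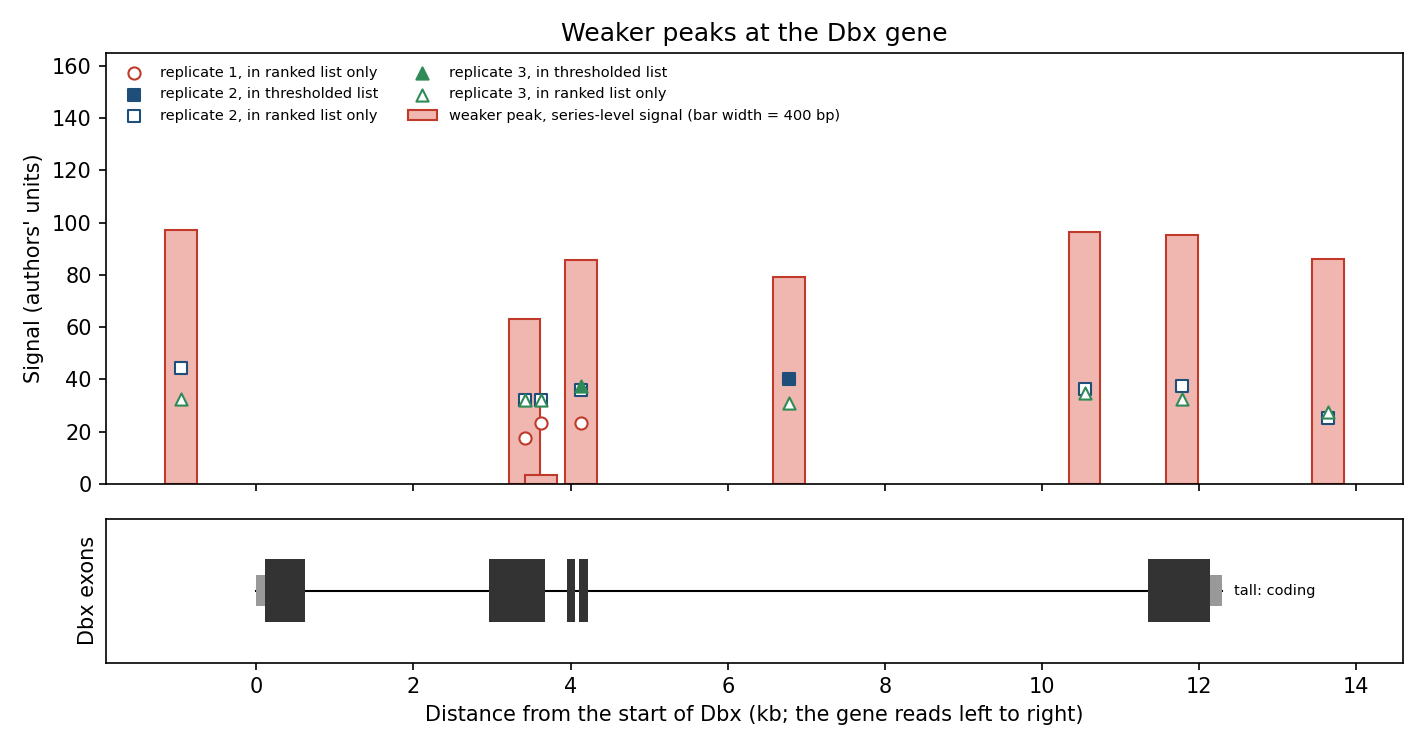
Weaker peaks within 5000 bp of Dbx by distance from the start of the gene in kb (horizontal axis), with their series-level signal as bars and the signal of the overlapping ranked peak in each replicate as symbols, above the exons of the gene. No replicate 1 symbol is drawn at 5 of the 8 peaks, and filled symbols, in a thresholded list, occur at 4132 bp for replicate 3 and 6779 bp for replicate 2.

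Short words were counted on both strands within 100 bp of each summit, apart for promoter and other summits. Of 24 tests, 3 passed, all with a lower share at weaker summits. Outside promoters, the homeodomain-like word TTATTA was found at 209 of 1195 weaker summits (17.5%) and 629 of 2400 conservative ones (26.2%), a difference of -8.72 points (Fisher's exact test, adjusted p = 8.01e-08). The TATA word, TATAAA, was found at 21.6% and 28.8% outside promoters (Fisher's exact test, adjusted p = 4.51e-05), and at 20.8% and 27.1% within them (Fisher's exact test, adjusted p = 0.0119). Evenly spaced genome windows held TTATTA in 21.1% and TATAAA in 22.1% of cases, and windows at all protein-coding TSSs in 17.8% and 26.9%. With introns and intergenic DNA alone, TTATTA passed at 21.5% against 27.3% (Fisher's exact test, adjusted p = 0.00955), and the TATA word did not (Fisher's exact test, adjusted p = 0.249).

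The core word TAATTA did not differ past the threshold. It was found at 11.0% of weaker and 13.1% of conservative promoter summits and at 10.9% and 13.2% of the others (Fisher's exact test, adjusted p = 0.271 and 0.159), beside 12.3% of genome windows. TATCGATA, bound by DREF, was found at 7.27% of weaker and 9.95% of conservative promoter summits (Fisher's exact test, adjusted p = 0.157), against 0.629% of genome windows and 6.45% of TSS windows. GGTCACAC, the core bound by M1BP, was found at 6.95% and 5.78% of promoter summits (Fisher's exact test, adjusted p = 0.395). The remaining words, CGATA of BEAF-32, GAGAG of the GAGA factor, the E-box words CAGCTG and CATCTG, GCCATTTT of Pho, CAGGTAG of Zelda and the homeodomain-like TAATGA, did not pass in either class. CGATA is part of TATCGATA, so these words are not counted apart. Base composition moved with these counts: the median G+C content of the same windows was 43.8% at weaker and 39.3% at conservative summits, and 43.3% and 40.8% within promoters. Its part in the word counts was not tested.

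Chromosome shares of the 2 sets differed by less than the tests could separate. Arms 2L, 2R, 3L and 3R held 335, 361, 424 and 410 weaker summits, X held 283 and 4 held 1. None of the 6 shares passed against the conservative share (Fisher's exact test, 0 of 6 at an adjusted and 0 at an unadjusted threshold of 0.05, smallest adjusted p = 0.719). The interval of the difference on X ran from -2.62 to 1.31 points and on 3L from -0.43 to 4.08 points.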

How the data were processed

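Peaks came from 3 ChIP-seq libraries of 1 group. The authors' deposited lists, in dm6 per the labels, give for each peak a signal value and a summit position; the deposited ranked lists also give the −log10 of the IDR. For read depth, aligner and peak caller, the entry is: not given in the sources used here. Depth is therefore unknown. The deposited series-level lists draw on the alignments of all 3 libraries and a control, per the file headers; which reads were paired is not stated there. In each ranked list of the series, 8 further columns hold values of unnamed samples and were not used.

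Peaks were classed by their summit from the Ensembl release 115 annotation, promoters (250 bp on either side of a protein-coding TSS) first, and genes assigned by nearest TSS. Shares were compared with two-sided Fisher's exact tests, Benjamini-Hochberg adjusted over 6 classes, 6 chromosomes or 24 word tests (threshold 0.05). The 12 word tests on introns and intergenic DNA alone were adjusted apart and were added after the data were seen. Differences have Newcombe 95% intervals, in Python 3.11.15 with scipy 1.17.1 and statsmodels 0.14.6. The class test was tested on simulated data. Intervals cover counting error only. Named peaks were the 20 of highest signal, the 10 of highest signal in all 3 replicate lists, up to 4 genes per gene list, the genes with most weaker peaks, Dbx, and the printed sequences. No printed sequence was taken from arm 2R. Coding-exon peaks, and the last 2 peaks in all 3 lists, were added after their values were seen. The members and the 14 gene lists were chosen with earlier results of these data known. Alternatives covered promoter windows, the overlap rule, the comparison set, the IDR threshold and left-out replicates. The genome sequence was checked against the annotation: 99.9% of start codons read ATG.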

Additional observations from a re-analysis of the deposited data

How the results depend on the processing

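The promoter and coding-exon differences kept their direction and passed under all 13 alternatives tried, between -18.5 and -9.74 points and between 1.97 and 11.9 points. The lowest sizes came from peaks in at least 1 replicate list, a choice added after the data were seen, as were the limits to a signal of 40 or more, to a signal from 40 to 95.5 and to ranked peaks in all 3 replicates and the lists rebuilt at an IDR of 0.01. An IDR of at most 0.005 gave 4.81 points for coding exons. The intron difference missed the threshold against the signal-limited set (4.26 points), with both sets at a signal from 40 to 95.5 (2.91), with a 100 bp promoter window (0.67) and where a conservative peak within 500 bp removed a peak (2.60). The intergenic difference missed it against the signal-limited set (2.93), at a signal from 40 to 95.5 (2.24), where an overlap had to cover 0.5 of a peak to remove it (1.88), for peaks in at least 1 replicate list (0.92) and for ranked peaks in all 3 (0.91), and turned to -2.30 points with a 100 bp window. A narrower window moves summits out of the promoter class by construction; the cause of the other changes was not tested. The share in at least 1 replicate list was 21.5 to 26.8% with 1 replicate left out, lowest without replicate 1, and 100% with the ranked replicate lists. The replicate-mean promoter difference stayed between -12.0 and -9.52 points. The share of nearest genes with a conservative summit was 26.3% within 1000 bp of the TSS. With introns and intergenic DNA alone, 1 of 12 word tests passed. Depth is unknown, so nothing is said of what more reads would show.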
